A study of Canis lupus familiaris with 24 samples.

Results

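The hyaluronan and versican genes described here are HAS1, HAS2, HAS3, VCAN, CD44, TNFAIP6, HYAL1 and HYAL2, followed through 24 pieces of lung from 3 mongrel dogs. A probe set counted as a member when its only gene symbol in the platform's annotation was one of these 8 symbols. The rule found 17 of the 22283 probe sets on the array, and they covered 5 of the 8 genes, out of 11226 gene symbols with a tested probe set of their own, with 1 probe set for HAS2, 5 for VCAN, 8 for CD44, 2 for TNFAIP6 and 1 for HYAL2. HAS1, HAS3 and HYAL1 had no probe set listed under their symbol alone and were not analysed here. All 17 passed the filter on detection calls, which kept probe sets called Present, the array software's call for a detected transcript, on at least 6 of the 24 arrays. The set was chosen by the injured minus control values of HAS2 and VCAN, which were known beforehand. Every injured minus control difference of a member is therefore given below as a description with no test, and so is the pattern of HAS2 and VCAN within the injured lung. Whether the difference between the lungs varied with position or level was tested only for CD44, TNFAIP6 and HYAL2.

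In each anesthetized dog the left lung was lavaged with warm saline, 20 ml/kg on 4 occasions, and is called injured. The right lung of the same dog was the control and was the only lung given 5 cmH2O of positive end-expiratory pressure (PEEP), a pressure kept in the airway at the end of each breath. Both lungs were ventilated at 25 breaths/min for 5 h, and lavage, side and PEEP cannot be told apart because they differed together. Pieces came from 4 sites in each lung, at the apex or the base and in the dependent (lower under gravity) or nondependent part, so that each of the 8 groups of lung and site held 3 arrays, 1 per dog. The labels give no age or sex for the dogs.

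Hyaluronan is a long sugar chain of the extracellular matrix that hyaluronan synthases (HAS genes) make at the cell membrane from nucleotide sugars. Versican, the product of VCAN, is a large chondroitin sulfate proteoglycan that binds hyaluronan and forms with it a loose, hydrated matrix in which cells migrate. CD44 is the main cell surface receptor for hyaluronan, TNFAIP6 (TSG-6) is a secreted protein that transfers heavy chains of inter-alpha-inhibitor onto hyaluronan, and the hyaluronidases HYAL1 and HYAL2 cut the chain. In the lung this matrix surrounds vessels and airways and lines the alveolar interstitium, and it is known to be remodelled after injury.

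Dog RNA was hybridised to a human array, so levels of different genes and of different probe sets are not compared. The share of probe sets with a Present call ran from 60.8 to 82.3% over the arrays. In dog 3, both apical arrays and the dependent basal array of the injured lung stood apart, with a brightest signal of at least 22164 on each and at most 20473 on the remaining 21 arrays. Values without these 3 arrays are given beside several of the HAS2 and VCAN 204620_s_at results that they move. SFTPC, which encodes a surfactant protein of alveolar epithelium, was called Present on all 24 arrays. Lists of markers of 8 lung cell types had 0 members past the threshold, a limma adjusted p of 0.05, between the lungs. Of all tested probe sets only 0.210% passed for the mean of 4 sites and 0.404% at the base nondependent site. The count of 0 therefore does not show that cell makeup was alike.

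HAS2, a hyaluronan synthase known to make long chains, had its highest levels at the base of the injured lung and above all in the nondependent part. Here the HAS2 signal, scaled intensity on a linear scale, was 767 in dog 1, 2188 in dog 2 and 891 in dog 3 in the injured lung, and 29.5, 89.3 and 110.2 in the control lung. Every injured piece there was above every control piece, as for 4.79% of all tested probe sets. The injured signal was 24.5-fold the control signal in dog 2 and 8.08-fold in dog 3. The control piece of dog 1 had no Present call, so its 29.5 is not a measured level and no fold is given for that dog. The mean difference at this site was 4.11 ± 0.66 (log2, SE from the fit, n = 3 dogs), or 17.3-fold, with HAS2 called Present in 2 of the 3 control pieces behind it, and 3.81 without dog 1. Because these are whole pieces of tissue, fewer or more cells of a type and less or more RNA per cell cannot be told apart.

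The base dependent site was split between animals. The injured HAS2 signal was 398 in dog 1, 374 in dog 2 and 137 in dog 3, against control signals of 65.3, 39.5 and 237. HAS2 was thus higher in the injured lung in dogs 1 and 2 and lower in dog 3, whose injured piece is one of the 3 arrays that stood apart. The mean difference was 1.68 (log2), 2.54 without those 3 arrays, 2.92 without dog 3 and 0.91 without dog 2.

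At the apex the HAS2 signals of the lungs overlapped. The apical pieces of dog 1 had no Present call in either lung, so its signals and differences there are not measured levels. In the dependent apex the injured signal was 20.1, 70.1 and 229 in dogs 1, 2 and 3, and the control signal 56.4, 46.5 and 103. In the nondependent apex the injured signal was 37.4, 102 and 244, and the control signal 33.9, 59.6 and 131. In the dependent apex the mean difference was 0.08 (log2, SE 0.66), with -1.49 in dog 1, 0.59 in dog 2 and 1.15 in dog 3, and it was -0.43 without the 3 arrays. In the nondependent apex it was 0.61, with the injured piece higher in 3 of 3 dogs (0.14, 0.78 and 0.89), and 0.30 without the 3 arrays.

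Ordered by their mean log2 signal over 3 dogs, the HAS2 groups ran from the injured base nondependent site at 10.16 ± 0.82 (SD) through the injured base dependent site at 8.09 ± 0.87 to the injured apex nondependent site at 6.61 ± 1.35. The remaining groups lay between 6.01 and 6.41. The first step in this order was 2.07 and the second 1.48, each larger than the SD of both groups it separates. None of the other steps, of at most 0.31, exceeded the SD of its neighbours.

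**Figure D1:**
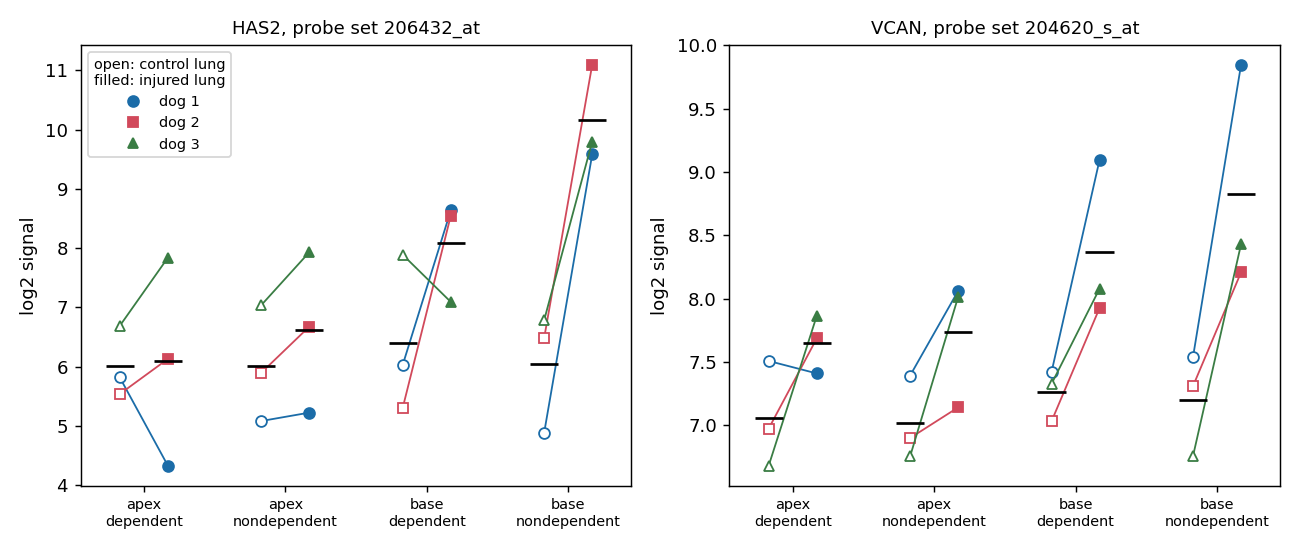
Log2 signal (vertical axis) of HAS2, left, and of the brightest VCAN probe set, right, at the 4 sites, with the control lung open and the injured lung filled, 1 line per dog and a short bar for the mean of 3 dogs. At the base nondependent site every injured point lies above every control point for both genes, as for 4.79% of all tested probe sets. At the base dependent site the HAS2 line of dog 3 slopes down.

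Over the 4 sites together HAS2 was 3.08-fold higher in the injured lung (log2 difference 1.62 ± 0.33, SE), with 1.49 in dog 1, 2.31 in dog 2 and 1.07 in dog 3. The injured piece was the higher in 10 of the 12 pairs of pieces from the same dog and site, a count that 3.27% of all tested probe sets reached. HAS2 was called Present on 9 of 12 control arrays and on 10 of 12 injured arrays, and every call other than Present was in dog 1.

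The control lung entered the choice of genes as the reference of the injured minus control values. Its HAS2 and VCAN values are therefore not independent of that choice. Within the control lung HAS2 showed no difference past the threshold. Dependent minus nondependent was 0.18 ± 0.47 (log2, SE, n = 3 dogs; limma adjusted p = 0.999), with a 95% confidence interval from -0.79 to 1.16. Base minus apex was 0.22 ± 0.47 (limma adjusted p = 0.985), with an interval from -0.76 to 1.19. In limma 0 of the 20034 probe sets (0%) passed in either comparison of the control lung, with 959 for position and 1033 for level at an unadjusted p under 0.05.

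Within the injured lung, given as a description, HAS2 at the base exceeded the apex by 2.77 ± 0.47 (log2, SE), with 4.33 in dog 1, 3.42 in dog 2 and 0.56 in dog 3. The same difference was 3.61 without the 3 arrays of dog 3 that stood apart, 3.87 without dog 3 and 1.99 without dog 1. The dependent part was below the nondependent part by -1.29 ± 0.47, in the same direction in 3 of 3 dogs (-0.92, -1.55 and -1.40). The difference between the lungs was larger at the base than at the apex by 2.55 ± 0.66, which came from dogs 1 and 2 (4.33 and 3.24) and not from dog 3 (0.09). The apical pieces of dog 1 had no Present call in either lung. The 4.33 of dog 1 in both comparisons thus rests partly on signals that are not measured levels. The larger difference at the base than at the apex is given here with that limit. That larger difference was 3.39 without the 3 arrays, 3.78 without dog 3 and 1.66 without dog 1.

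RNA quality moved with part of this pattern. At the base nondependent site the 3′ minus 5′ log2 signal of the GAPDH control probe sets, which grows as RNA is degraded, was higher in the injured than in the control lung by 1.35 in dog 1, 0.41 in dog 2 and 0.09 in dog 3. The ACTB controls gave 1.03, 0.48 and -0.47. With both measures as covariates, the HAS2 difference there was 3.18 in place of 4.11, and the larger difference at the base than at the apex was 1.56 in place of 2.55. At the base dependent site the GAPDH measure was higher by 1.42 in dog 1 and 0.17 in dog 2 and stood at -0.17 in dog 3, and ACTB gave 1.26, -0.12 and 0.90. The HAS2 difference there was 1.05 with both covariates in place of 1.68. In the dependent apex GAPDH gave -1.10, 0.07 and 0.31 in dogs 1, 2 and 3, and ACTB -2.04, -0.14 and 0.66. In the nondependent apex GAPDH gave -0.24, -0.15 and -0.22, and ACTB -1.52, -0.03 and -1.19. With both covariates the HAS2 difference was 0.37 in place of 0.08 in the dependent apex and 0.75 in place of 0.61 in the nondependent apex. The part of RNA quality in these differences was not tested.

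Over the 4 sites VCAN was higher in the injured lung by all 5 of its probe sets. The brightest, 204620_s_at, is the one followed by site below, where the suffix _s_at marks probes that may match several transcripts and _x_at probes that may also bind other genes. Its injured signal at the base nondependent site was 921 in dog 1, 296 in dog 2 and 345 in dog 3, against 186, 159 and 108 in the control lung. At the base dependent site it was 548, 243 and 271 against 171, 131 and 161. Every injured piece lay above every control piece at both basal sites, as did 4.79 and 4.88% of all tested probe sets at the respective site.

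At the apex the groups of VCAN 204620_s_at overlapped. In the dependent apex the injured signal of 204620_s_at was 170.1, 206 and 233 in dogs 1, 2 and 3, and the control signal 182, 126 and 103. In the nondependent apex it was 267, 141 and 259, and the control signal 168, 119 and 108. Dog 1 in the dependent apex was the only one of 12 pairs in which the injured piece was lower, and 0.669% of all tested probe sets were higher in at least 11 of 12 pairs.

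The difference in 204620_s_at was 0.60 (log2) in the dependent apex, 0.72 in the nondependent apex, 1.11 in the dependent base and 1.63 ± 0.31 (SE) in the nondependent base. Without dog 1 the 4 values were 0.95, 0.75, 0.82 and 1.29, and without the 3 arrays of dog 3 the apical values were 0.35 and 0.45. Over the 4 sites it was 1.01 ± 0.15, or 2.02-fold, with 1.14 in dog 1, 0.69 in dog 2 and 1.22 in dog 3. Without the 3 arrays of dog 3 the difference over the 4 sites was 0.88. In the order of group means, all 4 injured sites (7.65 to 8.83, log2) lay above all 4 control sites (7.02 to 7.26). The one step larger than the SD of both neighbours was the 0.39 between the lowest injured and the highest control site.

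The other VCAN probe sets differed in size. Over the 4 sites 211571_s_at was higher by 1.65 ± 0.27 (log2, SE; 2.55, 1.42 and 0.97 in the 3 dogs), 215646_s_at by 1.05 ± 0.28, 204619_s_at by 0.84 ± 0.21 and 221731_x_at by 0.30 ± 0.16. The injured piece was the higher in 11, 10, 10 and 8 of 12 pairs respectively. All 5 probe sets stayed higher in the injured lung under each of the 11 processing settings compared, with differences from 0.21 to 1.99. After the mean of each dog was removed, the 5 followed each other over the 24 arrays with pairwise Pearson correlations from 0.40 to 0.83 and a median of 0.67.

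The lungs did not overlap at the apex by 211571_s_at. Its injured signal there ran from 109 to 188 over 6 pieces and its control signal from 23.8 to 72.7, with Present calls on 5 of the 6 injured and 2 of the 6 control pieces. In the nondependent base the injured pieces gave 1124, 319 and 380.2 and the control pieces 94.8, 90.8 and 139.8, again without overlap. The base dependent site was the exception, since dog 3 had 97.7 in the injured and 144 in the control piece, on one of the arrays that stood apart. In the dependent apex 3 of the 17 member probe sets had all injured pieces above all control pieces, beside 6.34% of all tested probe sets. They were 211571_s_at and 215646_s_at of VCAN and 204490_s_at of CD44. In the nondependent apex 1 did, 211571_s_at, beside 3.61%. In the nondependent base 3 of the 17 did, beside 4.79%: HAS2 and the VCAN probe sets 204620_s_at and 211571_s_at.

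**Figure D2:**
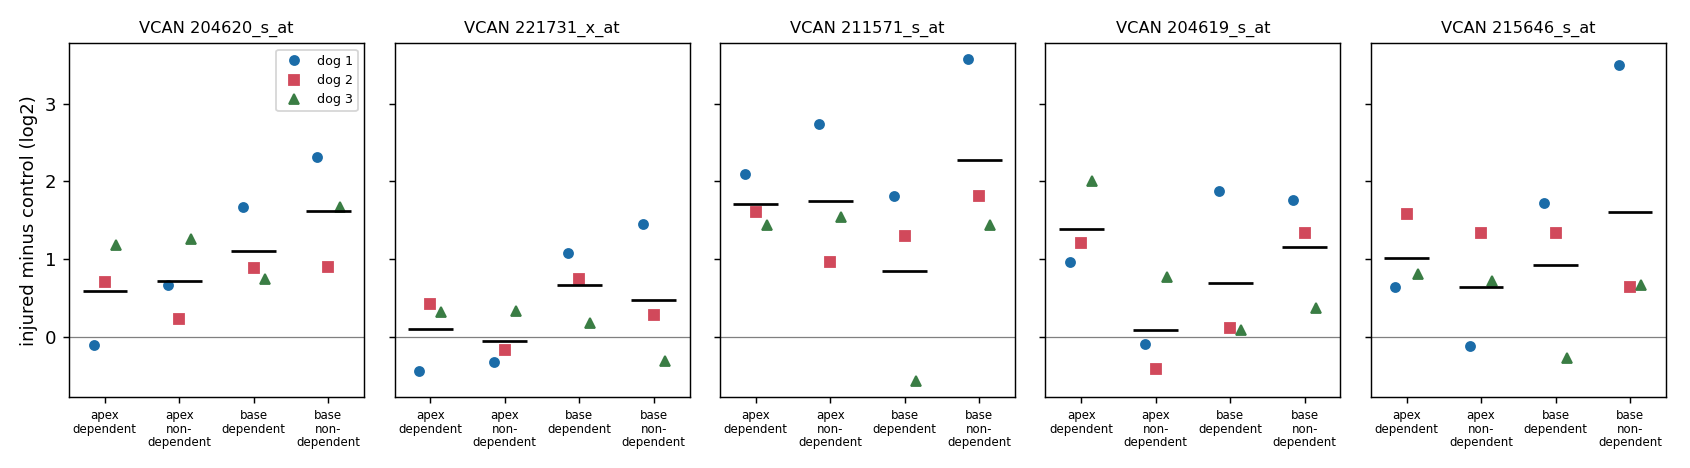
Injured minus control difference (log2, vertical axis) of each VCAN probe set at the 4 sites, with 1 point per dog and a bar for the mean. The means lie above 0 at every site except for 221731_x_at in the nondependent apex, and at the base nondependent site dog 1 has the highest point in every panel.

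Within the control lung VCAN showed no difference past the threshold. For 204620_s_at dependent minus nondependent was 0.05 ± 0.22 (log2, SE; limma adjusted p = 0.999) and base minus apex 0.20 ± 0.22 (limma adjusted p = 0.966), with intervals from -0.41 to 0.50 and from -0.26 to 0.65. The 211571_s_at probe set was higher at the control base than at the control apex by 1.34 ± 0.39, in 3 of 3 dogs (2.16, 0.39 and 1.48), a difference with an unadjusted limma p of 0.0022 that did not pass after adjustment over all probe sets (limma adjusted p = 0.945). At the control apex 211571_s_at had a Present call in only 1 of 3 dependent and 1 of 3 nondependent pieces. Its difference between control base and apex thus rests partly on signals that are not measured levels. The 3 remaining VCAN probe sets gave 0.36, 0.14 and -0.09 for the same comparison.

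Within the injured lung, as a description, all 5 VCAN probe sets were higher at the base than at the apex, by 0.33 to 1.17 (log2) with a median of 0.79. For 204620_s_at the difference was 0.90 ± 0.22 (SE), made of 1.74 in dog 1, 0.65 in dog 2 and 0.32 in dog 3, and it was 0.48 without dog 1 and 1.17 without the 3 arrays of dog 3. The larger difference between the lungs at the base than at the apex was 0.71 ± 0.31 for this probe set, 0.21 without dog 1, 0.97 without the 3 arrays and 0.27 with the 2 RNA quality measures as covariates. It was 1.71 in dog 1, 0.42 in dog 2 and -0.01 in dog 3, so for this probe set the difference between base and apex rested on dog 1. For 211571_s_at the same quantity was -0.17 (0.27, 0.27 and -1.05 in the dogs).

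Of the 17 member probe sets, 3 had a limma adjusted p under 0.05 for the injured minus control mean of 4 sites (HAS2 and the VCAN probe sets 204620_s_at and 211571_s_at, all higher), beside 0.210% of all tested probe sets. Of the same 17, 2 did at the base nondependent site (HAS2 and 204620_s_at), beside 0.404%, with 211571_s_at next outside at a difference of 2.27 (log2). For base minus apex in the injured lung 1 did (HAS2), beside 0.0349%. In each of the other 8 comparisons 0 members and 0 of all tested probe sets passed. Nothing is read from these counts, because HAS2 and VCAN were chosen with them in view. The member counts in these 3 comparisons were 0, 0 and 0 without dog 1 and also without dog 2, 2, 1 and 1 without dog 3, and 1, 0 and 0 without the dog as a block in the fit.

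CD44, the hyaluronan receptor, lay close to the control level. Over the 4 sites all 8 of its probe sets were higher in the injured lung, by 0.04 to 0.22 (log2) with a median of 0.11, next to a median of 0.03 over all tested probe sets. The 95% confidence intervals of the 8 ran from -0.35 to 0.68. As an example, 204489_s_at had an injured signal of 188, 289.6 and 256 in the 3 dogs at the base nondependent site and a control signal of 96.8, 218 and 275. The groups overlapped there, with dogs 1 and 2 higher and dog 3 lower in the injured lung.

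The CD44 probe sets did not follow each other, with pairwise correlations from -0.33 to 0.52 and a median of 0.09 over 28 pairs, so no single CD44 pattern can be read from them. One of them, 210916_s_at, had a higher signal in the injured lung at the base dependent site in every dog. The signals there were 164, 186 and 288 against 118, 34.3 and 121. At that site only 2 of 3 injured and 1 of 3 control pieces had a Present call. In the nondependent apex of the control lung 1 of 3 pieces had such a call. For 210916_s_at the difference between the lungs was larger at the base than at the apex by 1.19 ± 0.44 (log2, SE), with 1.69, 0.97 and 0.90 in the dogs. The unadjusted limma p was 0.013 and the limma adjusted p 0.479. Both the base dependent difference and this larger difference at the base thus rest partly on signals that are not measured levels. At the base dependent site 5 of the 17 member probe sets had all injured pieces above all control pieces, beside 4.88% of all tested probe sets: 204620_s_at and 221731_x_at of VCAN, 212063_at and 210916_s_at of CD44, and 206026_s_at of TNFAIP6.

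TNFAIP6 was detected in both lungs and differed little between them. Its brighter probe set, 206026_s_at, was called Present on all 24 arrays, with signals from 67.5 to 204 in the control lung and from 73.0 to 257 in the injured lung. The mean difference was 0.27 ± 0.18 (log2, SE; 0.18, 0.16 and 0.46 in the dogs). At the base dependent site the injured pieces gave 149, 164 and 158 and the control pieces 70.3, 77.2 and 145, whereas at the base nondependent site, where HAS2 and VCAN 204620_s_at differed most, they gave 90.4, 123 and 102 against 96.5, 204 and 67.5. The second probe set, 206025_s_at, differed by -0.03 ± 0.23 and correlated with the first at only 0.08 over the 24 arrays.

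HYAL2, a hyaluronidase held at the cell surface, was called Present on all 24 arrays. Its signal ran from 48.9 to 121 in the control lung, with a median of 77.8, and from 58.6 to 150.5 in the injured lung, with a median of 72.2. The difference over the 4 sites was -0.02 ± 0.14 (log2, SE; -0.11, -0.0046 and 0.05 in the dogs), with an interval from -0.32 to 0.28. In the nondependent base the injured pieces gave 59.3, 64.7 and 75.4 and the control pieces 58.4, 48.9 and 104.

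The position and level comparisons could be tested for CD44, TNFAIP6 and HYAL2. Of their 11 probe sets 0 passed in either comparison of the control lung (lowest limma adjusted p 0.990 for position and 0.945 for level), in either comparison of the injured lung (0.918 and 0.575), or in the test of whether the difference between the lungs varied with position or level (0.856 and 0.479). At an unadjusted p under 0.05 there were 2 of these results, base minus apex of 212063_at in the control lung (-0.54 ± 0.25, log2, SE) and the 210916_s_at difference above. For HYAL2 base minus apex was -0.14 ± 0.20 in the injured and -0.11 ± 0.20 in the control lung.

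**Figure D3:**
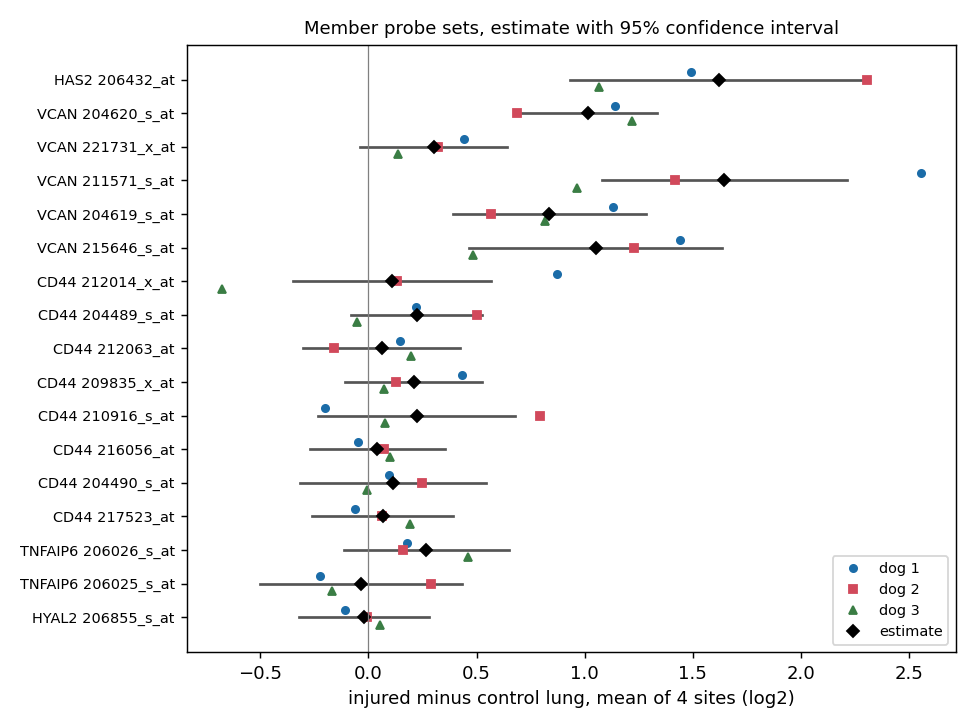
Injured minus control difference of the mean of 4 sites (log2, horizontal axis) for the 17 member probe sets, with the estimate and its 95% confidence interval as a diamond and line and the 3 dogs as separate points. The estimates of HAS2 and of all 5 VCAN probe sets lie above 0. Both genes were chosen with this difference in view, so their intervals are a description and no test. The estimates of the 11 probe sets of CD44, TNFAIP6 and HYAL2 lie within 0.27 of 0.

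HAS2 and VCAN varied together over the pieces. With the mean of each dog removed, the log2 signal of HAS2 and of VCAN 204620_s_at had a Pearson correlation of 0.82 over the 24 arrays (Spearman 0.69), 0.86 without the 3 arrays of dog 3 and 0.82 over the 12 injured pieces. The other VCAN probe sets correlated with HAS2 at 0.78, 0.76, 0.64 and 0.44. The arrays share 3 dogs and 6 lungs and both genes were chosen for differing between the lungs, so this is a description. Among the other members CD44 204489_s_at had a correlation of 0.71 with HAS2, and the remaining 10 probe sets of CD44, TNFAIP6 and HYAL2 ran from -0.21 to 0.39.

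**Figure D4:**
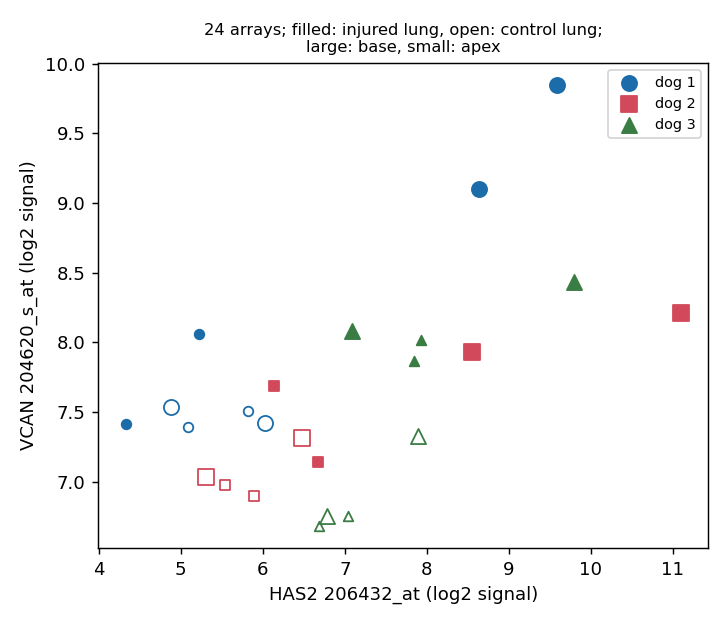
Log2 signal of HAS2 (horizontal axis) against VCAN 204620_s_at (vertical axis) on the 24 arrays, with dogs by colour and shape, the injured lung filled and the base in large symbols. The 2 basal injured pieces of dog 1 have the highest VCAN, and the base nondependent injured piece of dog 2 has the highest HAS2 with VCAN well below that of dog 1.

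By the same measure, the probe sets of other genes most like HAS2 out of 17254 were those of THBS1 (0.92), which encodes the matrix protein thrombospondin, the splicing factor SFPQ (0.92), the translation initiation factor EIF4E (0.92), the chaperonin subunit CCT8 (0.90) and the cAMP-responsive transcription factor CREM (0.90). VCAN 204620_s_at came in rank 43. The least like were NDRG2 (-0.88), IRX5 (-0.84) and SRGAP3 (-0.83). For VCAN 204620_s_at the most like were 4 metallothionein genes, which encode small metal-binding proteins, MT1X (0.92), MT1F (0.91), MT1HL1 (0.90) and MT2A (0.88), followed by the RNA helicase DDX39A (0.88), with HAS2 in rank 15. Metallothionein genes are near-identical and their _x_at probe sets may share transcripts. The least like were SESN1 (-0.87), SRGAP3 (-0.85) and NDRG2 (-0.85).

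The other genes of hyaluronan and versican biology gave 0 calls in limma. Of 102 genes in 10 lists, 88 had a tested probe set. For the injured minus control mean of 4 sites 0 of the 88 passed, beside 0.210% of all tested probe sets. At the base nondependent site 0 passed beside 0.404%, and 0 passed in any other comparison. With shares this low, a count of 0 among 88 genes does not show that they were unchanged. Over the 4 sites 43 of the 88 were higher in the injured lung (48.9%, beside 54.7% of all tested probe sets), and at the base nondependent site 30 of 88 were (34.1%, beside 42.0%).

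Enzymes that make the nucleotide sugar precursors of hyaluronan were 3 higher and 4 lower of 7 measured, with GPI, an enzyme of glycolysis, at -0.30 ± 0.16 (log2, SE, here and below for the mean of 4 sites), UAP1, which makes UDP-N-acetylglucosamine, at -0.24 ± 0.26 and UGDH, which makes UDP-glucuronic acid, at 0.19 ± 0.20. Of 6 other hyaluronan-degrading genes 3 were higher, led by CEMIP at -0.11, SPAM1 at 0.10 and HEXA at -0.08. Of 8 other receptors and binders 4 were higher, with TLR2, an innate immune receptor, at -0.15, STAB2, a scavenger receptor for hyaluronan, at 0.12 and STAB1 at -0.09. The medians of these 3 lists were -0.04, -0.01 and -0.01.

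Of the 7 partners of TNFAIP6, 5 were higher, with PTX3, a secreted pentraxin that TNFAIP6 binds, at 0.43 ± 0.19, ITIH1, an inter-alpha-inhibitor heavy chain, at -0.38 ± 0.20 and SERPING1 at 0.22 ± 0.24. PTX3 at the base nondependent site stood at -0.06 ± 0.39. The proteases that cut versican included ADAMTS1 at 0.40 ± 0.27, ADAMTS20 at 0.31 ± 0.20 and ADAMTS9 at -0.07 ± 0.11, with 2 of 4 higher. Among 5 relatives of versican and link proteins 3 were higher, with HAPLN2 at 0.26, ACAN (aggrecan) at -0.20 and NCAN (neurocan) at 0.13.

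Matrix proteins that bind versican were mostly lower, 6 of 8, with FBN1 (fibrillin) at -0.52 ± 0.23, FN1 (fibronectin) at -0.38 ± 0.22 and FBLN1 (fibulin) at -0.35 ± 0.22. Other probe sets of FN1 ran from -0.39 to 0.39, so they did not agree in sign. Of 14 genes of chondroitin sulfate synthesis, the chains carried by versican, 9 were higher, with CHST12 at -0.53 ± 0.27, DSE at -0.44 ± 0.20 and CHST15 at 0.41 ± 0.14. Of 11 adaptors and ligands of CD44, 7 were higher, with SRGN (serglycin) at 0.51 ± 0.21, the membrane linker MSN at 0.43 ± 0.18 and its relative EZR at 0.30 ± 0.16. At the base nondependent site MSN stood at 1.34 ± 0.37 and SRGN at 0.95 ± 0.42, and neither passed the threshold.

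Of 18 other matrix and small proteoglycan genes 5 were higher, with the collagen genes COL1A2 at -0.55 ± 0.18 and COL3A1 at -0.53 ± 0.25 and the proteoglycan DCN (decorin) at -0.46 ± 0.18. Fibroblasts are a main source of versican in tissue, and of 11 fibroblast markers 1 was higher in the injured lung, with a summed signal from 7293 to 14877 on the control and from 4074 to 13152 on the injured arrays. Mesothelial markers, of which 2 of 4 were higher, summed to between 836 and 1521 and between 382 and 1165. Neutrophil markers, 6 of 10 higher, summed to between 855 and 1411 in the control lung and between 779 and 1583 in the injured lung. These 3 sums overlapped between the lungs, and no tested marker of these lists was called Present on none of the arrays of a lung. Of 11 markers of lung epithelium 3 were higher, with a median of -0.14 (log2). The lowest were AGER of alveolar type 1 cells at -1.02 and CLDN18, a tight junction protein of alveolar epithelium, at -1.35. The 3 higher were PDPN, also of type 1 cells, at 0.26, LAMP3 at 0.12 and SCGB1A1 at 0.10, so the list did not agree in sign. The signals of the 11 epithelial markers summed to between 6548 and 11681 in the control lung and between 2998 and 8908 in the injured lung. In the nondependent base, where HAS2 and VCAN 204620_s_at were highest, this sum ran from 7611 to 9214 in the control and from 4062 to 7176 in the injured pieces and did not overlap. Macrophage and monocyte markers nearly met there, at 1325 to 1580 in the control and 1176 to 1323 in the injured pieces. The sums of the fibroblast, smooth muscle, mesothelial, endothelial, neutrophil and lymphocyte lists overlapped at this site. The share of single probe sets with all injured pieces below all control pieces is not given here, so nothing is read from these sums. The part of cell makeup in the HAS2 and VCAN differences was not tested.

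**Figure D5:**
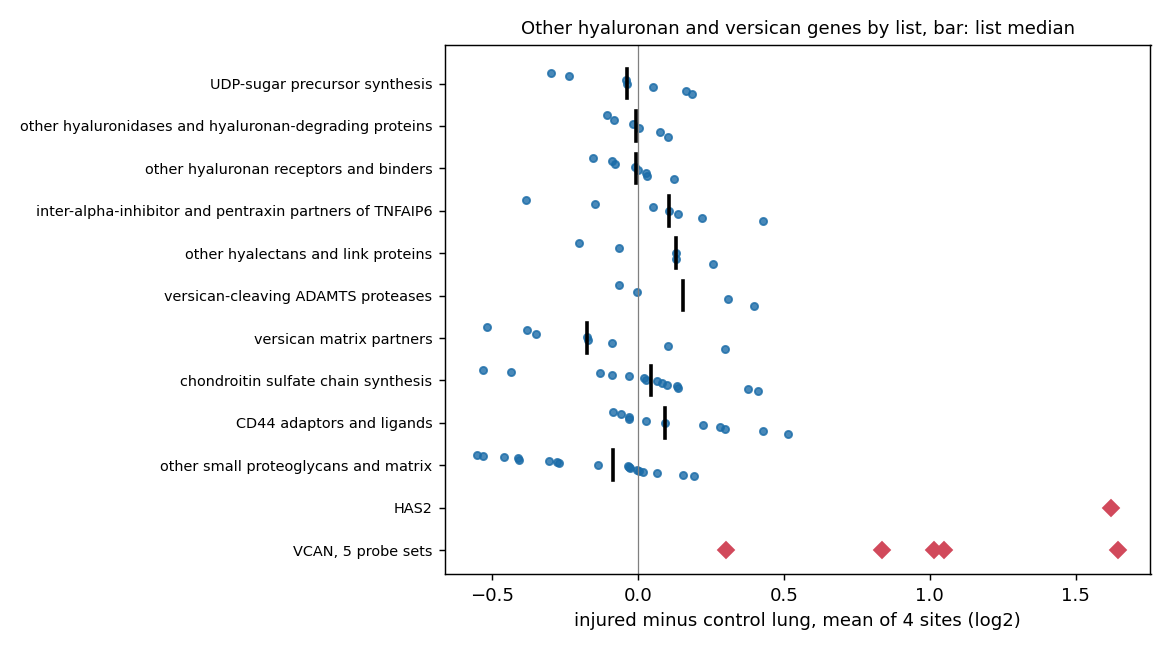
Injured minus control difference of the mean of 4 sites (log2, horizontal axis) for each gene of the 10 lists, 1 point per gene with a bar for the list's median, and below them HAS2 and the 5 VCAN probe sets. All 88 listed genes lie between -0.55 and 0.51, below HAS2 at 1.62 and 4 of the 5 VCAN probe sets.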

How the data were processed

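The 24 arrays were Affymetrix HG-U133A arrays, per the file headers, and each array's deposited file holds an intensity per probe set with its detection call and detection p-value. The authors' intensities had a 2% trimmed mean of 149.94 to 149.95 on each array, so they had been scaled to about 150. Any masking of human probes, like the software, is not given in the sources used here. On all 24 arrays the deposited series table differed from the array files by 0. No batch is recorded, and the groups came from the labels.

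Of 22283 probe sets, 68 controls and 11 without a call were left out, and 20034 called Present on at least 6 arrays were tested. Signals were put on the log2 scale, with 3 signals of 0 set to 0.1. limma 3.58.1 in R 4.3.3 fitted the 8 groups with the dog as a block and an intensity trend, with Benjamini-Hochberg adjustment over all 20034 probe sets at 0.05, and the method was tested on simulated data. The labels put the 8 pieces of a dog in 1 animal. Deviations from the group means correlated at a median of 0.236 (lowest 0.00696) for pieces of the same dog and -0.136 for pieces of different dogs. The correlation of pieces of 1 lung, estimated at -0.0396, was set to 0, so pieces of a lung count as separate units while whole lungs were lavaged. Per-dog means, an alternative below, take the 3 dogs as units. Precision is limited by the number of arrays: the median SE of a log2 difference was 0.18 over the 4 sites and 0.36 at 1 site.

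Members and lists were chosen with earlier results of these data known. Every member probe set is named. A listed gene stands by its brightest tested probe set with 1 symbol, and the text names those that passed or otherwise up to 3 per list with the largest difference of the mean of 4 sites. Likeness names the 5 highest and 3 lowest genes by correlation. MSN, SRGN and PTX3 at the base nondependent site were singled out after their values were seen. All 8 member symbols occur in RefSeq's dog genes (assembly UU_Cfam_GSD_1.0). The files name no genome build, so no position is given. Alternatives were no dog block, per-dog means, quantile normalization, no filter, an offset of 16, RNA quality covariates, the median of a gene's probe sets, and leaving out the 3 arrays of dog 3 or each dog.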

Additional observations from a re-analysis of the deposited data

Results flagged for a closer look

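For 3 CD44 probe sets every dog moved one way at one site and the opposite way at another. The difference between the sites was not tested in any of them. For 212063_at injured minus control was -0.48 (log2) at the apex nondependent site (-0.59, -0.82 and -0.03 in dogs 1, 2 and 3) and 0.72 at the base dependent site (0.65, 0.64 and 0.85), which are -1.19 apart. For 216056_at it was 0.58 at the apex dependent site (0.85, 0.75 and 0.14) and -0.34 at the apex nondependent site (-0.67, -0.09 and -0.26), which are 0.92 apart. For 204490_s_at it was 0.67 at the apex dependent site (0.48, 0.42 and 1.11) and -0.48 at the apex nondependent site (-0.62, -0.27 and -0.55), which are 1.15 apart.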

How the results depend on the processing

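No described difference turned sign where it was called: HAS2 stayed between 1.28 and 1.90 (log2) over the 4 sites and between 3.18 and 4.66 at the base nondependent site, and VCAN 204620_s_at between 0.88 and 1.18 and between 1.26 and 1.99. The counts of calls moved more, and the causes were not tested beyond the smaller number of samples where some were left out. For the mean of 4 sites, all and member probe sets called (42 and 3) were 6 and 1 without the replicate block of the dog, 6 and 0 on per-dog means with that block, and from 0 to 26 and from 0 to 2 with 1 dog left out. At the base nondependent site (81 and 2) they were 0 and 0 without the block and 9 and 0 with the RNA quality covariates. There all calls were 42 after quantile normalization and 151 without the 3 arrays of dog 3, and with 1 dog left out all ran from 0 to 134 and members from 0 to 1. For base minus apex in the injured lung (7 and 1) both were 0 without the block, after quantile normalization and with the covariates. They were 59 and 2 without the 3 arrays and from 0 to 102 and from 0 to 1 with 1 dog left out, and an offset of 16 gave 14 calls in all. At the base dependent site (0 calls) there was 1 without the filter and from 0 to 3 with 1 dog left out. For the larger difference at the base than at the apex (0 and 0) there were 24 and 1 without the 3 arrays, and from 0 to 32 and from 0 to 1 with 1 dog left out. Of the single values named for the other members and probe sets, 23 moved by more than the spread between dogs and 1670 did not. HAS2 had no Present call in 3 of 12 control and 2 of 12 injured pieces, which limits its low values.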
